A study of Mus musculus with 6 samples.

Results

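The genes described here build the outermost layer of the epidermis: the epidermal differentiation complex, a cluster of neighbouring genes on mouse chromosome 3, and partners of its products in the cornified envelope. Members were chosen by name, as every array row with exactly 1 gene symbol that started with Lce or Sprr or was one of a list of named envelope precursors, keratins, cross-linking enzymes, proteases and adhesion proteins. This gave 46 of the 20255 genes measured, from 52 rows. Of these members 33 lie in the complex and 13 elsewhere. By role there were 14 small proline-rich (Sprr) genes, 12 late cornified envelope (Lce) genes, 3 envelope precursors, 4 S100-fused genes, 4 keratins, 2 cross-linking enzymes, 4 proteases and 3 adhesion or secreted proteins. Flg and Hrnr, the filaggrin and hornerin genes, had no row with 1 symbol and were not analysed here.

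The samples were whole-skin biopsies of mouse wound scars. Large wounds in mouse skin can form new hair follicles inside the scar, called wound-induced hair neogenesis. High-regeneration scars, from mice that formed many new follicles, were sampled at days 4, 6 and 9 after the wound had closed, with 1 sample per day, and low-regeneration scars in the same way. Mice of the low group had no new follicles according to the design text, but the labels of the samples say only low. Strain, age, sex and genotype were not given in the sources used here, no treatment other than the wound is named, and the labels do not say which samples share an animal. The p-values below therefore measure the spread between these 6 samples, and their number limits the precision of every value.

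A keratinocyte that leaves the basal layer first makes the keratins that fill the cell, then the precursor proteins that transglutaminases cross-link beneath its membrane into the cornified envelope. Involucrin is laid down early, loricrin makes up much of the finished envelope, small proline-rich proteins act as cross-bridges and late cornified envelope proteins are added late. Several Sprr genes are known to be switched on in wounded or inflamed skin, whereas Lce genes are known mostly from the uppermost living layers of intact epidermis. Proteases then process filaggrin and cut the junctions between dead cells, so that the surface layer can be shed.

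Promoter sequences are shown here for the Sprr and Lce genes, which lie side by side in the complex, and for other members whose levels are described below. RefSeq windows of GRCm38.p6, 250 bases before to 50 bases after a gene's start, were at hand for 40 of the 46 members (42 windows). They are printed 5′ to 3′ on the gene's own strand, and capitals mark each match to TGANTCA, searched on both strands. This pattern takes in TGACTCA and TGAGTCA, the usual letters bound by AP-1 (dimers of Fos and Jun proteins), and also TGAATCA and TGATTCA. The windows are Sprr1a, chr3:92485832-92486131, minus strand; Sprr2d, chr3:92338890-92339189, plus strand; Sprr4, chr3:92500444-92500743, minus strand; Tchhl1, chr3:93468504-93468803, plus strand; Lor, chr3:92083093-92083392, minus strand; and Lce1h, chr3:92765016-92765315, minus strand.
Sprr1a: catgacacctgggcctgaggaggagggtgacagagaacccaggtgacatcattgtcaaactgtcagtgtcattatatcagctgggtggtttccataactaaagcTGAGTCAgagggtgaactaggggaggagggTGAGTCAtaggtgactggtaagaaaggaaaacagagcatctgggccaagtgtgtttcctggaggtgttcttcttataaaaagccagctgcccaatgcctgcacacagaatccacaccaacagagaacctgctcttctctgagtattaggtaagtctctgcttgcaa
Sprr2d: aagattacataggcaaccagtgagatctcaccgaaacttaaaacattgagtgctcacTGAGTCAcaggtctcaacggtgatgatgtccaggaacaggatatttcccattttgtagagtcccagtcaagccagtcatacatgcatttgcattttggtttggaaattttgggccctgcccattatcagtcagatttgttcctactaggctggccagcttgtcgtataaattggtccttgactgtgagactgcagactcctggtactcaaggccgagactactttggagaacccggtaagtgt
Sprr4: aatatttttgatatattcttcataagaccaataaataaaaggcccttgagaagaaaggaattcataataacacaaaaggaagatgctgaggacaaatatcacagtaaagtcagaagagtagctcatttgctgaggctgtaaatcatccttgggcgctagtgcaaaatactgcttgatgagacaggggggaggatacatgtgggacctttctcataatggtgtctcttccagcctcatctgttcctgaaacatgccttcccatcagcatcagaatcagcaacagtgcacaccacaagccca
Tchhl1: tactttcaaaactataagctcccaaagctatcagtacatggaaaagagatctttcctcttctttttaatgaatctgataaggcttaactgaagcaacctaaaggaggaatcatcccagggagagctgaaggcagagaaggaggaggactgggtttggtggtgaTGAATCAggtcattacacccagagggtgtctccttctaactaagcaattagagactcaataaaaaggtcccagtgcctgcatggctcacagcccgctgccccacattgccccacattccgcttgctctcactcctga
Lor: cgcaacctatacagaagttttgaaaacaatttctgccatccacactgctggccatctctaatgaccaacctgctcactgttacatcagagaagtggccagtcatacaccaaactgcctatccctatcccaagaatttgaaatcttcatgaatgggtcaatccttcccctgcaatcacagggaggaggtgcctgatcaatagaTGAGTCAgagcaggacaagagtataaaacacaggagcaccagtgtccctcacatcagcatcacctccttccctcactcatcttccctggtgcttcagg
Lce1h: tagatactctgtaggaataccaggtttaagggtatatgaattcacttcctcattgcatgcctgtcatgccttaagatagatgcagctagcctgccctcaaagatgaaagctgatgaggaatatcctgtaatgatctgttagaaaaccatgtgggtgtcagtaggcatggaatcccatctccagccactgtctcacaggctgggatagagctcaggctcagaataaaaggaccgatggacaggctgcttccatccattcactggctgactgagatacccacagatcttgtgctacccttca

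TGANTCA stood in 9 of 12 Sprr windows (75.0%), in all 4 windows of S100-fused genes and in 0 of 11 Lce windows, against 7.81% of all 32851 windows in the table. The only match was TGAATCA in Crnn, Flg2, Tchhl1 and Sprr1b and TGATTCA in Rptn, so no S100-fused window held TGACTCA or TGAGTCA. These stricter letters were not counted over all windows. Among the Sprr2 genes 7 of 8 windows held a match, and its first base lay at positions -198 to -182 from the start. Sprr1a had matches at -146 and -116, Tchhl1 had 1 at -87, and Lor had 1 at -48. Sprr4, whose levels spanned the most of any Sprr gene, had none, nor had Sprr2a1, Sprr3, Krt77 or any of the 11 Lce genes with a window. The TATA letters TATAAA, read on the gene's strand, stood in 10 of 12 Sprr windows (83.3%) and in 1 of 11 Lce windows (9.09%), against 8.32% of all windows. Of the other motifs searched on both strands, the ETS letters AGGAAG stood in 38.1% of member windows and 35.4% of all windows. The KLF letters GGGNGNGG stood in 42.9% and 49.5%, with 0 of the 11 Lce windows among them, and the C/EBP letters TTGCNNAA in 21.4% and 10.8%. Each match was counted whether or not it overlapped one of another motif. Windows within a family are related sequences and not independent: the 28 pairs of Sprr2 windows were 58.7% to 89.7% identical and the 21 pairs of Lce1 windows 61.0% to 82.7%. A match describes these letters alone.

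All values below are log2 levels or differences of log2 levels. Each gene is read by its own probes, so levels of different genes are not set against each other. Array medians lay between 6.04 and 6.10. Of the 46 members 39 passed the filter on dim genes (mean of at least 5.60), among 15191 genes that did. The 7 below it were Lce3a, Sprr2b, Sprr2f, Sprr2g, Sprr2j-ps, Sprr2k and Sprr3. Some samples stood apart from the rest. The low-regeneration scar of day 9 had an Xist level of 12.77, against 5.75 to 5.82 in 4 others and 7.30 in the low scar of day 6, and Uty, on the Y chromosome, at 3.88, against 7.46 to 8.07. The high-regeneration scar of day 4 had H2-Ea, a histocompatibility gene, at 6.59, against 4.09 to 4.43 in the others, and H2-Ob at 6.16, against 7.68 to 8.07. The low scar of day 6 also had Skint3, a gene of skin epithelium, at 4.01, against 9.02 to 10.35 elsewhere. Differences within any of the pairs cannot be told apart from whatever set those samples apart, so values per pair are given throughout. In whole skin, fewer keratinocytes and less RNA per keratinocyte cannot be told apart either.

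The first comparison asked which envelope genes differed between high- and low-regeneration scars of the same day. In limma with day as a block, 0 of 39 members passed a Benjamini-Hochberg adjusted p of 0.05, where 0.0527% of all genes did. The lowest adjusted p was that of Krt77, at 0.364. At an unadjusted p under 0.05 there were 3 members, Krt77 higher and Rptn and Lce3f lower, against 10.1% of all genes. Lce3f passed the filter on dim genes only through the low group, where it is higher. Its place in this count, and among the members lower in all 3 pairs below, supports nothing. The median difference over the members was 0.014, and over all genes -0.003. With 1 sign in all 3 pairs there were 3 members higher (Krt77, Flg2 and Kprp), against 15.8% of all genes, and 4 lower (Rptn, Lce3f, Casp14 and Sbsn), against 18.3%. Both member shares, 7.69% and 10.3%, lay below those of all genes. After quantile normalization Krt77, Rptn, Lce3f, Casp14 and Sbsn kept 1 sign in all pairs, while Flg2 and Kprp did not.

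**Figure D1:**
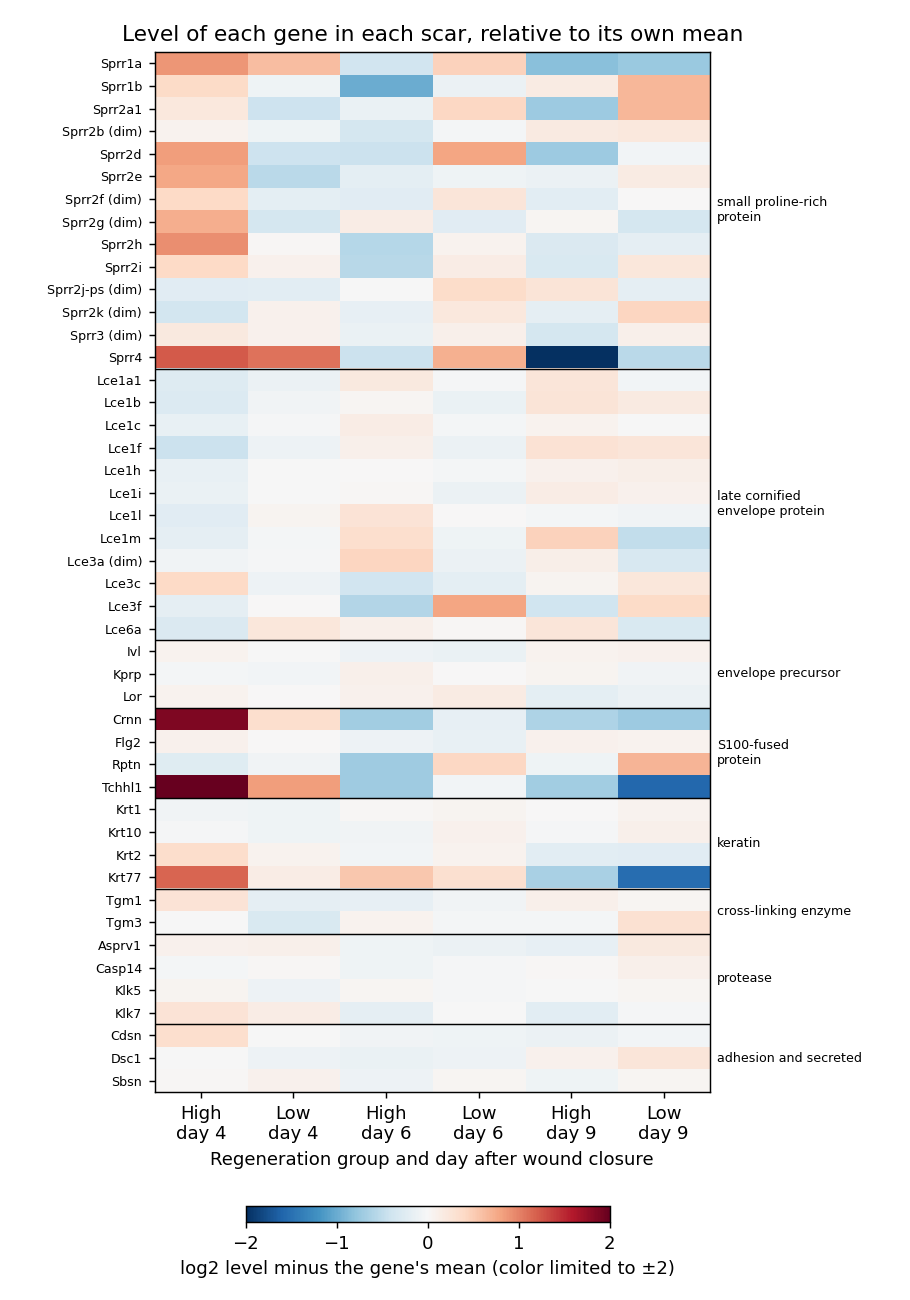
Level of each of the 46 members (rows, grouped by role) in each scar (columns, high before low within each day), as log2 level minus the gene's own mean over the 6 scars, in color. Members whose mean lay below the filter are marked dim. Most rows of precursors, keratins, proteases and adhesion proteins are near white, and the strongest colors are those of Tchhl1, Crnn, Sprr4 and Krt77.

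Core components of the mature envelope were nearly level across all 6 scars. Lor, the loricrin gene, stood at 12.24, 12.25 and 11.97 in high-regeneration scars of days 4, 6 and 9, against 12.18, 12.33 and 12.05 in low. Ivl, encoding involucrin, stood at 11.22, 11.04 and 11.21 in high, against 11.14, 11.02 and 11.23 in low. Kprp, keratinocyte proline-rich protein, stood at 12.07, 12.22 and 12.17 in high, against 12.07, 12.13 and 12.05 in low. For each of the 3 precursors the groups overlapped, and no pair differed by more than 0.12. The mean differences, high minus low, were -0.03 ± 0.08 for Lor, 0.03 ± 0.05 for Ivl and 0.07 ± 0.06 for Kprp (SD, n = 3 pairs).

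Of the keratins, Krt1 and Krt10 were as even as the precursors, and Krt2 and Krt77 less so. Krt1, the type II keratin of the spinous layer, had 13.64, 13.74 and 13.72 in high-regeneration scars and 13.63, 13.77 and 13.78 in low. Krt10, its type I partner, had 12.41, 12.36 and 12.42 in high and 12.36, 12.53 and 12.54 in low. Both spanned under 0.2 log2 units over the 6 scars, and their groups overlapped. Krt2, a type II keratin of the upper epidermis that in mice is known chiefly from ear, tail and foot skin, was close to the filter, with 5.97, 5.55 and 5.39 in high and 5.68, 5.68 and 5.38 in low. Its slope over time was -0.09 per day (adjusted p = 0.215 in limma), but both day 9 values lay below the filter. The difference between groups, 0.05 ± 0.21, was smaller than the spread between pairs.

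Krt77, another type II keratin of the epidermis, was the member with the largest difference that ran higher in all 3 pairs. Its levels were 12.48, 11.85 and 10.67 in high-regeneration scars of days 4, 6 and 9, against 11.47, 11.64 and 9.80 in low. High exceeded low on every day, but the group ranges overlapped, since the day 9 scar of the high group lay below the day 4 and day 6 scars of the low group. The mean difference was 0.70 ± 0.42 (SD, n = 3 pairs; 1.62-fold, 95% interval 0.26 to 1.14, adjusted p = 0.364 in limma). By pair it was 1.01, 0.21 and 0.87. Without the day 6 pair the mean was 0.94, and without the day 4 or the day 9 pair it was below 0.70. Its day 9 minus day 4 difference was -1.81 in high and -1.68 in low.

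**Figure D2:**
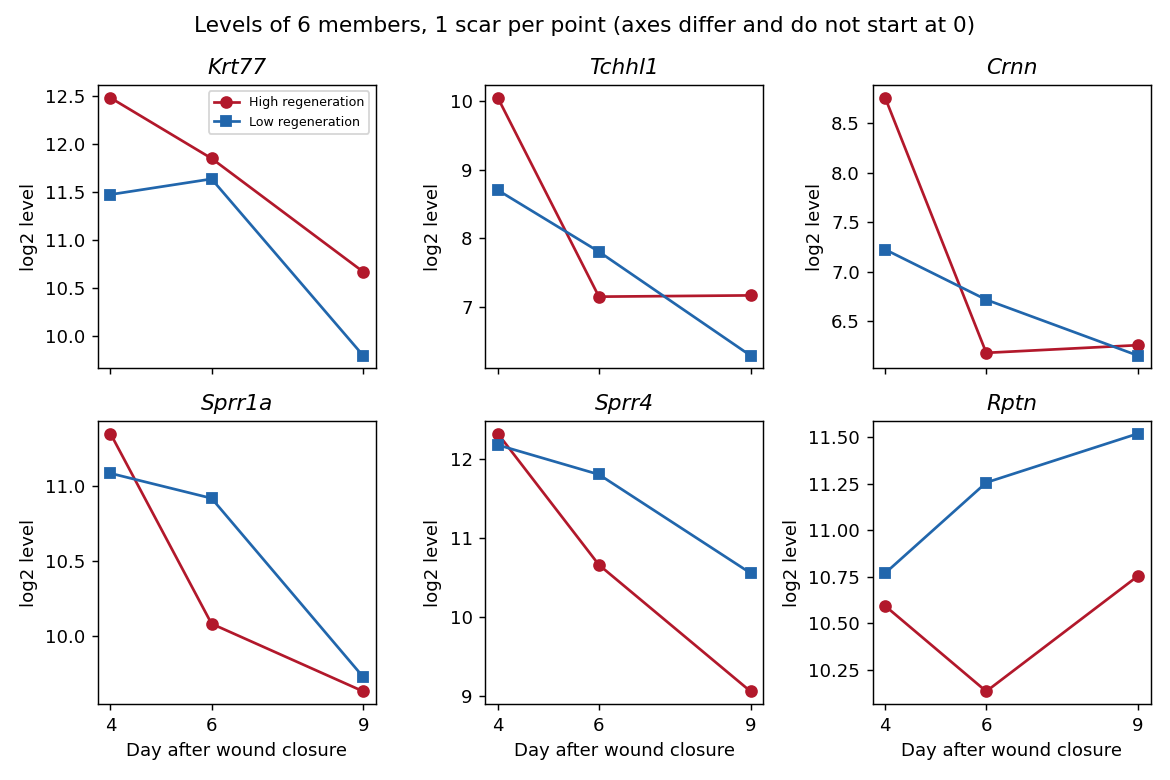
Log2 level (vertical axes, which differ between panels and do not start at 0) against day after wound closure for 6 members, with 1 scar per point and high-regeneration scars listed before low. Krt77 in high lies above low on each day, Rptn in high lies below low on each day, and in both groups the day 9 points of Tchhl1, Crnn, Sprr1a and Sprr4 lie below those of day 4.

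The Lce1 genes, the largest group of Lce members, showed mostly small differences. Among the 8 Lce1 genes, all 8 were lower in high at day 4, all 8 were higher at day 6, and 7 were higher at day 9. The medians were -0.15, 0.20 and 0.06 at days 4, 6 and 9. In the day 4 pair 52.1% of all genes were lower in high, and in the day 6 and day 9 pairs 49.8% and 49.1% were higher, with 14, 17 and 15 of the 39 tested members in those directions. Lce1 rows come from related genes and may share signal, so the 8 genes are not treated as independent observations. Their probe positions were not examined. The counts by pair were the same after quantile normalization. Under that setting the mean difference of Lce1h moved to -0.14, against -0.04 with the values as deposited.

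Lce1h had 13.14, 13.31 and 13.38 in high-regeneration scars, against 13.28, 13.25 and 13.40 in low. Its groups overlapped and the pairs differed by at most 0.14 in size. Lce1f was the Lce gene with the steepest slope, 0.11 per day (adjusted p = 0.215 in limma), with 9.43, 9.96 and 10.15 in high and 9.75, 9.74 and 10.10 in low. For Lce1m the difference changed sign between days, with 8.86, 9.38 and 9.51 in high and 9.00, 8.95 and 8.56 in low. At day 9 the high scar was thus 0.95 above the low one, the largest difference of any Lce1 gene. Day 9 exceeded day 4 in both groups for 6 of the 8 Lce1 genes, and for 28.8% of all genes.

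Lce3f, outside the Lce1 group, was lower in high on every day. It had 5.64, 5.23 and 5.41 in high-regeneration scars, against 5.82, 6.60 and 6.19 in low, and the groups did not overlap. The mean difference was -0.78 ± 0.60 (SD, n = 3 pairs). Its mean was 5.43 in high and 6.21 in low, so it passed the filter of 5.60 only through the low group. The size of the difference is therefore a description, and whether the high values stand above background is not known. Without the day 6 pair the difference was -0.48. Lce3a, below the filter, had 5.45, 5.95 and 5.64 in high and 5.50, 5.41 and 5.21 in low. Lce3c and Lce6a overlapped between groups, with mean differences of 0.05 ± 0.39 and 0.04 ± 0.54.

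The Sprr genes ran the other way in time. All 8 tested Sprr genes were higher in high at day 4 and lower in high at days 6 and 9. For all genes the shares were 47.9% higher at day 4, 50.2% lower at day 6 and 50.9% lower at day 9, and for the 39 members the counts were 25, 22 and 24. Counting the 6 dim genes as well, 12 of 14 were higher at day 4, 13 of 14 lower at day 6 and 12 of 14 lower at day 9, with medians of 0.39, -0.51 and -0.36. Quantile normalization left these counts as they were, and the contrast with the Lce1 genes was not tested. Because the pairs differ in sign, each tested Sprr gene's mean difference was smaller than the SD of its pairs. Sprr2 rows may share signal between related genes, whose probe positions were not examined.

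**Figure D3:**
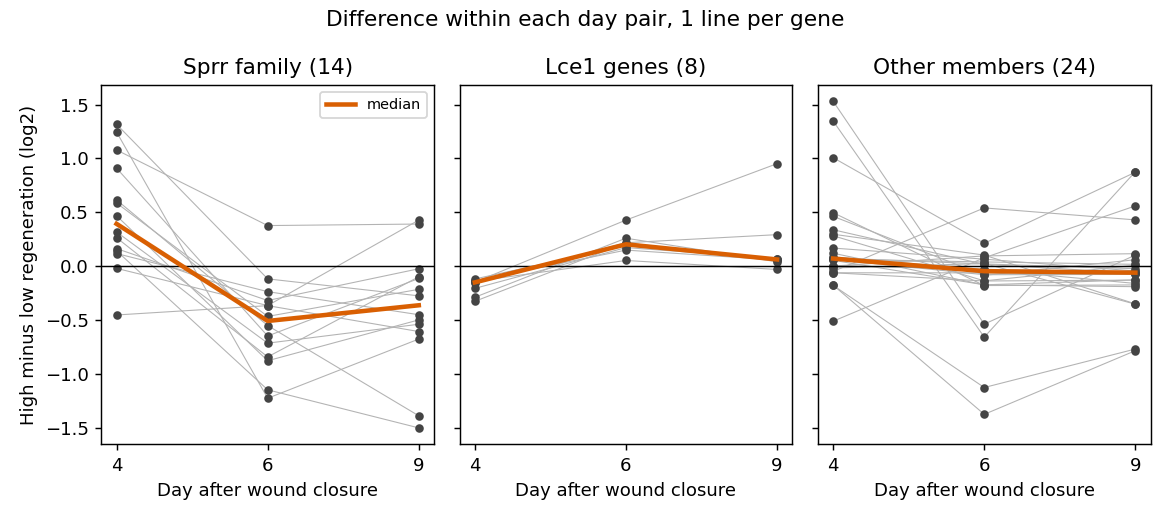
High minus low log2 difference within each day pair (vertical axis) at days 4, 6 and 9 (horizontal axis), with 1 thin line per gene and the median as a thick line. The 14 Sprr genes have a median of 0.39 at day 4, -0.51 at day 6 and -0.36 at day 9, the 8 Lce1 genes -0.15, 0.20 and 0.06, and the other 24 members stay near 0 in the median.

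Sprr2d showed the turn most plainly, with 8.12, 6.86 and 6.56 in high-regeneration scars of days 4, 6 and 9 and 6.87, 8.08 and 7.23 in low. The high scar was higher by 1.25 at day 4 and lower by 1.22 at day 6, so the mean difference was -0.22 ± 1.30. Sprr2e had 6.96, 5.99 and 6.08 in high and 5.65, 6.10 and 6.35 in low. Sprr2h had 6.94, 5.43 and 5.72 in high and 6.03, 6.08 and 5.83 in low. In both genes the high scar of day 4 held the highest of the 6 values. The highest-mean row of Sprr2a1 gave 8.44, 8.10 and 7.52 in high and 7.83, 8.65 and 8.90 in low. Its other rows disagreed with each other: 1 had 5.66, 3.97 and 4.36 in high and 4.31, 6.20 and 7.09 in low, the same signs by pair with larger gaps. The last had 3.65, 4.11 and 4.03 in high and 3.77, 3.68 and 3.30 in low, the opposite signs.

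Sprr1b had 11.89, 10.51 and 11.67 in high-regeneration scars, against 11.42, 11.39 and 12.16 in low. The groups overlapped, and the high scar of day 6 was the lowest of all. Sprr1a had 11.35, 10.08 and 9.63 in high and 11.09, 10.92 and 9.72 in low, so both groups were lowest at day 9. Its slope was -0.31 per day (SE 0.05, adjusted p = 0.161 in limma). The dim Sprr2b stayed between 3.15 and 3.71 in all 6 scars. Of the other dim genes, Sprr2g was higher in high in all 3 pairs (5.25, 4.67 and 4.55 in high, 4.17, 4.29 and 4.16 in low) and Sprr2k lower in all 3 (3.68, 3.89 and 3.87 in high, 4.13, 4.26 and 4.47 in low). Neither pair of groups overlapped, but whether these rows stand above background is not known.

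Sprr4 had the widest span of the Sprr genes. Its levels were 12.32, 10.66 and 9.05 in high-regeneration scars of days 4, 6 and 9, against 12.17, 11.80 and 10.55 in low. The scars of the day 4 pair were alike, and the gap then widened to -1.14 at day 6 and -1.498 at day 9. Its day 9 minus day 4 difference was -3.26 in high and -1.62 in low. The slope over both groups was -0.49 per day (SE 0.07, 95% interval -0.67 to -0.31), with an unadjusted p of 0.000555 and an adjusted p of 0.141 in limma, the lowest of any member. The difference in slope, high minus low, was -0.31 per day (adjusted p = 0.988). The high minus low difference over all 3 pairs was -0.83 ± 0.86 (SD). Without the day 4 pair it was -1.32, and without the day 6 or the day 9 pair it was smaller in size than with all 3.

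**Figure D4:**
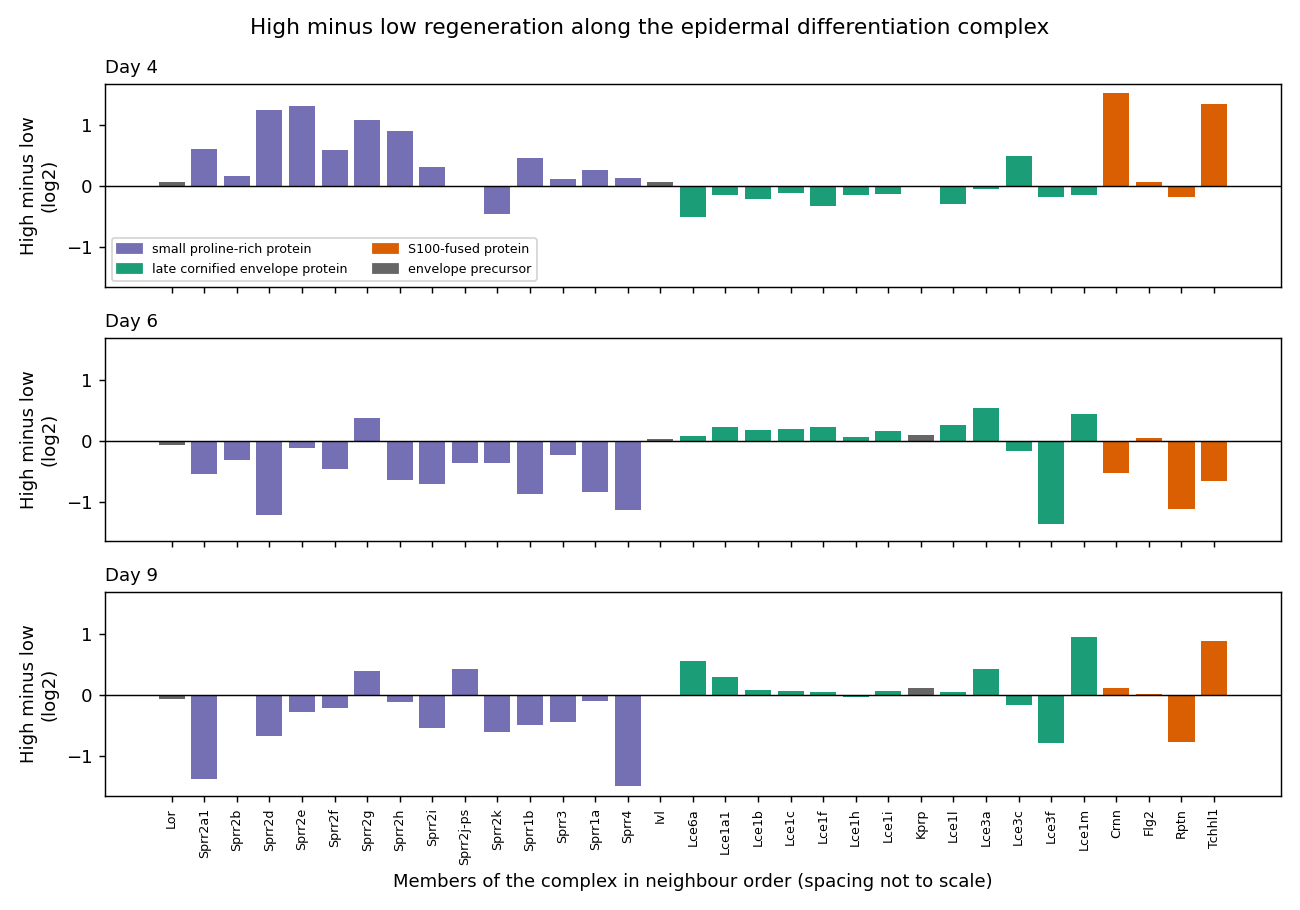
High minus low log2 difference at days 4, 6 and 9 (bars, from 0) for the 33 members of the complex in their neighbour order on chromosome 3, not to scale, colored by role. Bars of the Sprr stretch point mostly up at day 4 and mostly down at days 6 and 9, while those of the Lce1 genes are short and point down at day 4 and mostly up afterwards.

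In neighbour order the complex runs from Lor through the Sprr2 genes, Sprr1b, Sprr3, Sprr1a and Sprr4 to Ivl, then through the Lce genes to Crnn, Flg2, Rptn and Tchhl1. Ivl, between the Sprr and Lce stretches, differed by at most 0.08 in any pair, while its neighbour Sprr4 reached -1.498. Kprp, which lies among the Lce genes, differed by at most 0.12.

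S100-fused proteins join a calcium-binding S100 domain to long repeats and sit between the keratin filaments and the envelope. Flg2, filaggrin-2, was level at 13.56, 13.38 and 13.56 in high-regeneration scars and 13.49, 13.34 and 13.54 in low. It was higher in high in all 3 pairs, but only by 0.04 ± 0.02 (adjusted p = 0.844 in limma), and the groups overlapped. Rptn, repetin, had 10.59, 10.13 and 10.75 in high and 10.77, 11.26 and 11.52 in low, and the groups did not overlap. Its mean difference was -0.69 ± 0.48 (SD, n = 3 pairs; 0.620-fold, 95% interval -1.18 to -0.20, adjusted p = 0.393 in limma). Leaving out the pair of day 4, 6 or 9 gave -0.94, -0.47 or -0.65.

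Crnn, the cornulin gene, had 8.75, 6.18 and 6.26 in high-regeneration scars and 7.22, 6.72 and 6.15 in low. Tchhl1, trichohyalin-like 1, had 10.05, 7.15 and 7.17 in high and 8.70, 7.81 and 6.29 in low. In both genes the high scar of day 4 stood above all others, and the sign of the difference changed at day 6. Tchhl1 had the steepest slope of any member, -0.51 per day (SE 0.12, adjusted p = 0.203 in limma), and Crnn had -0.33 (SE 0.12, adjusted p = 0.267). Without the high scar of day 4 the Crnn slope was -0.15 and the Tchhl1 slope -0.36.

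Markers of several other cell types are set beside these genes. Over all genes, 47.9%, 49.8% and 49.1% were higher in high at days 4, 6 and 9. All 8 inner root sheath markers were higher in high at day 4, 4 at day 6 and all 8 at day 9. Their mean level was between 8.57 and 11.003 in high-regeneration scars and between 6.86 and 8.83 in low. For the 7 hair shaft markers with a row, 7, 4 and 7 were higher in high at days 4, 6 and 9, and the mean level was between 7.21 and 9.81 in high and between 6.15 and 7.52 in low. Krt77, Tchhl1, Crnn, Krt2 and the dim Sprr2g had their highest value in the high scar of day 4 and their lowest in the low scar of day 9. So did the mean levels of both these lists, and those of the melanocyte and the simple and mucosal epithelium lists. The lists of regulators of epidermal differentiation and of S100 genes, given below, did so too. Of the 6 wound-edge keratinocyte markers with a row, 4 were tested, and 4, 1 and 2 were higher in high at days 4, 6 and 9. Krt16, a keratin of injured epidermis, differed by 1.13, -1.56 and -0.55 in the 3 pairs, and Krt17 by 0.39, -0.16 and -0.16. These signs are those of all 8 tested Sprr genes. The other tested markers had other signs, Hbegf with 1.08, 0.73 and 0.29 and S100a8 with 1.48, -1.70 and 0.50. Of the 7 basal keratinocyte markers 6, 1 and 2 were higher in high at days 4, 6 and 9, with medians of 0.23, -0.07 and -0.02. Krt5, Krt14, Itga6 and Itgb4 had the signs of the tested Sprr genes. Krt15 was higher in all 3 pairs, Col17a1 lower in all 3, and Trp63 higher at days 4 and 9. The mean level of the 7 was between 9.91 and 10.34 in high and between 9.94 and 10.09 in low. Sebocyte markers were higher in high for 6, 0 and 3 of 7 at the 3 days, with mean levels between 7.64 and 9.58 in high and between 7.78 and 9.29 in low. All 6 tested melanocyte markers were higher in high in every pair, and the 7 measured had mean levels between 6.43 and 7.45 in high and between 6.26 and 6.79 in low. Skeletal muscle markers were higher in high for 6, 6 and 3 of 6, with a median of 0.80 at day 4 and mean levels between 6.95 and 7.95 in high and between 6.88 and 7.07 in low. The 5 markers of simple and mucosal epithelium, another source of Crnn and Sprr transcripts, lay between 6.06 and 6.39 in high and between 5.96 and 6.12 in low. Of the 6 fibroblast markers 0, 2 and 3 were higher in high at days 4, 6 and 9, with medians of -0.09, -0.05 and -0.04. Their mean level was between 10.69 and 10.88 in high and between 10.84 and 10.92 in low. The part of these cell types in the members' differences was not tested.

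The cross-linking enzymes were close between groups. Tgm1, the membrane-bound transglutaminase of the envelope, had 10.53, 10.10 and 10.36 in high-regeneration scars and 10.07, 10.18 and 10.30 in low. Tgm3, a transglutaminase of epidermis and hair follicle, had 9.34, 9.41 and 9.30 in high and 9.04, 9.31 and 9.65 in low. The groups overlapped for both, with mean differences of 0.15 ± 0.28 and 0.02 ± 0.33 (SD, n = 3 pairs).

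Proteases of the upper epidermis were equally even. Casp14, which takes part in filaggrin breakdown, had 12.22, 12.18 and 12.29 in high-regeneration scars and 12.28, 12.24 and 12.36 in low. It was lower in high in every pair, by 0.06 ± 0.01, and the groups overlapped (adjusted p = 0.739 in limma). Asprv1, an aspartic protease that cuts profilaggrin, had 8.17, 7.999 and 7.93 in high and 8.19, 7.97 and 8.28 in low. The kallikreins Klk5 and Klk7 cut the junctions between dead surface cells. Klk5 had 11.05, 11.02 and 10.98 in high and 10.88, 10.96 and 11.03 in low. Klk7 had 11.37, 10.93 and 10.90 in high and 11.25, 11.10 and 11.09 in low. Neither differed in 1 direction over the pairs.

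Adhesion genes followed the same pattern. Cdsn, corneodesmosin of the surface junctions, had 11.21, 10.80 and 10.77 in high-regeneration scars and 10.87, 10.78 and 10.83 in low. Dsc1, the desmosomal cadherin desmocollin 1, had 11.65, 11.54 and 11.75 in high and 11.56, 11.57 and 11.91 in low. The groups overlapped for both. Sbsn, suprabasin, a secreted protein of suprabasal cells, had 7.96, 7.83 and 7.84 in high and 8.02, 7.97 and 7.97 in low. Its groups did not overlap, though the gap was small, at -0.11 ± 0.04 (adjusted p = 0.609 in limma).

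In all, 18 members spanned under 0.5 log2 units over the 6 scars, as did 75.3% of all genes tested. After quantile normalization the count was 17. The 18 were Lor, Ivl, Kprp, Flg2, Krt1, Krt10, Tgm1, all 4 proteases, Cdsn, Dsc1, Sbsn and 4 Lce1 genes (Lce1c, Lce1h, Lce1i and Lce1l). Their differences lay between -0.11 and 0.15, which follows in part from choosing them by a narrow span over the same scars. At the other end, 12 of the 39 tested members spanned at least 1 log2 unit, against 5.22% of all genes. These were Krt77, Tchhl1, Crnn, Rptn, Lce3f and 7 Sprr genes (Sprr1a, Sprr1b, Sprr2a1, Sprr2d, Sprr2e, Sprr2h and Sprr4). A wide span says nothing of direction, and several of the 12 are related genes. Lce3f passed the filter on dim genes only through the low group, so its place among the 12 supports nothing.

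The second comparison asked which members changed with days after wound closure. In limma with group as a covariate, 0 of 39 members passed the slope test, and 0% of all genes did. At an unadjusted p under 0.05 there were 6 with a falling slope (Sprr4, Krt77, Tchhl1, Sprr1a, Crnn and Krt2), against 9.24% of all genes, and 2 with a rising slope (Lce1b and Lce1f), against 6.94%. Krt2, with a mean of 5.61 and day 9 values of 5.39 and 5.38, passed the filter of 5.60 only through earlier scars, where it is higher. Its place in this count supports nothing. Lists of other skin cell types had falling slopes at the same unadjusted threshold: 7 of 7 tested sebocyte markers, 7 of 8 of the inner root sheath, 5 of 7 of the hair shaft and 4 of 6 of melanocytes. The sebocyte markers had median day 9 minus day 4 differences of -2.33 in high and -1.58 in low, and none passed (lowest adjusted p = 0.100). Their part in the members' slopes was not tested. Krt77 had a slope of -0.36 per day (SE 0.06, adjusted p = 0.161). Day 9 lay above day 4 in both groups for 12 members, against 28.8% of all genes, and below it in both for 11, against 34.9%. The test for any difference among the days passed 0 members and 0% of all genes, with the lowest adjusted p at 0.208, for Krt77, and 9 members at an unadjusted p under 0.05, against 16.1% of all genes. Day and date of sampling cannot be told apart in this design.

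Leaving out a single scar altered some of these calls. Without the high scar of day 6, Tchhl1 (adjusted p = 0.00751) and Sprr1a (0.0340) passed the slope test in limma, and Krt77 and Tchhl1 passed the test for any difference among days (0.0218 each), where 130 and 40 of all genes passed. Krt77 and Tchhl1 also passed that test without the low scar of day 6, at 0.0277 and 0.0191, among 38 genes in all. The third comparison, the difference in slope between the groups, passed 0 members and 0% of all genes. At an unadjusted p under 0.05 there were 6 members (Sprr2a1, Lce6a, Sprr4, Lce1m, Tgm3 and Sprr2e), against 3.96% of all genes, and the lowest adjusted p was 0.988. Without the high scar of day 9, however, Crnn, Tchhl1 and Sprr2h passed, at 0.0168, 0.0194 and 0.0395, among 83 genes in all. The slope of the high group then came from the scars of days 4 and 6 alone. Fits of the difference in slope and of any difference among days have 2 residual degrees of freedom with all scars. With a scar left out they have fewer, so nothing is concluded from these passes.

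Other genes of envelope formation gave 0 calls in either of the first and second comparisons, in any list. Of 25 tested regulators of epidermal differentiation 8 were higher and 2 lower in all 3 pairs. For this and the lists that follow, the shares over all genes are 15.8% higher and 18.3% lower. The 8 included Klf4, a transcription factor needed for the skin barrier, with a difference of 0.57 ± 0.18 (adjusted p = 0.213 in limma), Ovol1 with 0.45 ± 0.26 and Cebpb with 0.25 ± 0.10. Over time the lowest p-values were those of Barx2, Sox9, a factor of follicle stem cells, and Vdr, the vitamin D receptor, with slopes of -0.10, -0.14 and -0.18 per day. Klf4 was higher in high in every pair, by 0.75, 0.58 and 0.39 at days 4, 6 and 9.

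Among 28 genes listed as other envelope components, 4 were higher and 6 lower in all 3 pairs, shares near the 15.8% and 18.3% of all genes. The list also holds genes that are not parts of the envelope, such as the cytokine gene Il1f6. Anxa1, annexin A1, differed by 0.57 ± 0.06 (adjusted p = 0.146 in limma), with nearly equal values of 0.56, 0.64 and 0.52 by pair. Il1f6, an interleukin-1 family cytokine of keratinocytes, was lower in every pair, by 0.46 ± 0.10 (adjusted p = 0.206), and had a slope of 0.14 per day (adjusted p = 0.102). Padi3, a deiminase that modifies filaggrin and trichohyalin, was higher by 2.19, 0.32 and 1.42 in the 3 pairs. Padi4 and Scel, sciellin, had slopes of -0.21 and -0.10 per day.

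The S100 genes of the complex, small calcium-binding proteins, had 12 tested members, 5 higher and 1 lower in all 3 pairs, against 15.8% and 18.3% of all genes. S100a3, known from the hair cuticle, was higher by 2.02, 0.52 and 1.35 (mean 1.30 ± 0.75, adjusted p = 0.342 in limma). S100a10 and S100a4 differed by 0.35 ± 0.27 and -0.17 ± 0.09. The slopes of S100a1, S100a3 and S100a16 were -0.10, -0.25 and -0.10 per day. For Padi3 and S100a3 the difference was smallest at day 6, as was the median of the inner root sheath and hair shaft lists. A link between them was not tested.

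The list of proteases and inhibitors of shedding had 14 genes, among them Sc5d, which is neither. Of these 0 were higher and 3 lower in all 3 pairs, the lower share being near the 18.3% of all genes. The 3 were Klk14 at -0.62 ± 0.46, Cst6, the protease inhibitor cystatin M/E, at -0.42 ± 0.32, and Klk13 at -0.37 ± 0.31. Their lowest adjusted p in limma was 0.416. For each the day 4 pair was nearly even and the low scars were higher at days 6 and 9. Over time Cst6, Ctsd and Ctsl had slopes of -0.20, -0.11 and -0.08 per day. Among 25 genes of barrier lipid synthesis 2 were higher and 4 lower in all 3 pairs, against 15.8% and 18.3% of all genes. Acer1, a ceramidase of the epidermis, differed by -0.23 ± 0.10 (adjusted p = 0.417), Psap by -0.19 ± 0.07 and Alox12b by 0.18 ± 0.15. Elovl4, which makes very long fatty acids, had a slope of -0.15 per day, and Alox12b and Acer1 each had 0.08.

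The 9 tested desmosome genes were all higher in high at day 4, with a median of 0.40, and 1 was higher at day 6 and 1 at day 9. The shares over all genes are 47.9%, 49.8% and 49.1%. Counts also fell after day 4 in the lists of shedding (11, 2 and 3 of 14), barrier lipids (17, 6 and 8 of 25) and other envelope components (21, 9 and 7 of 28). Regulators had 19, 13 and 15 of 25, and S100 genes 8, 8 and 9 of 12. No tested desmosome gene had 1 sign in all 3 pairs: Jup differed by 0.18 ± 0.35, Pkp1 by -0.08 ± 0.21 and Dsp by -0.07 ± 0.17. Dsc2, another desmocollin, had a slope of -0.32 per day (adjusted p = 0.204 in limma), Dsg3 -0.12 and Dsg1b 0.12.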

How the data were processed

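Whole-skin RNA of 6 mouse wound scars, 3 per group, was measured on Affymetrix exon arrays. The deposited values are log2 levels, as their range shows. The tools were Expression Console and PLIER, per the submitters' processing notes; their versions, the background correction and the genome build were not given in the sources used here. Of 53145 rows, 25466 had 1 gene symbol in the platform annotation, 2299 several and 25380 none; 24868 were matched by gene identifier to GRCm38.p6 names. Rows with several symbols named no gene. The row of highest mean stood for each gene, which was a choice for 3 members (Flg2, Dsc1 and Sprr2a1). The lowest 25% of genes by mean were left out. No further normalization was applied.

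Tests were two-sided moderated fits from limma 3.58.1 (run under R 4.3.3), with p-values adjusted by Benjamini-Hochberg over 15191 genes and a threshold of 0.05. High minus low had day as a block, since the design text states that each pair shared a date. Deviations of same-day samples correlated at 0.50, 0.11 and 0.56, but high day 4 with low day 6 (0.14) and high day 6 with low day 9 (0.11) were as alike as the day 6 pair. The slope had group as a covariate, and further fits tested the difference in slope and any difference among days. The fits were tested on simulated data. SD is over pairs, and a fold is 2 to the power of the mean difference.

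Members and gene lists were chosen with earlier results of these data known. Named with values in every sample were the precursors, keratins, enzymes, proteases and adhesion genes of the member rule. Of the Sprr, Lce and other members, those named were the 6 with the largest differences of 1 sign, the 6 with the steepest slopes of 1 sign, and the highest and lowest of each family. A further few, Sprr2a1, Sprr2d, Sprr2e and Lce1m, were chosen after their values were seen. For the lists of envelope genes the 3 of lowest p per comparison are named. Cell type lists are given by counts and levels, and the 4 tested wound-edge markers also by pair. Promoter windows came from RefSeq.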

Additional observations from a re-analysis of the deposited data

How the results depend on the processing

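No member passed any of the 4 tests with no filter, with the lowest 50% of genes left out, after quantile normalization, with the mean of all rows per gene, or with a trended robust prior in limma. The call count was also 0 for high minus low without the day block (no replicate block; lowest adjusted p = 0.547, median difference 0.01) and for day 9 minus day 4 in place of the slope. Over all genes the high minus low count was 8 as reported, 0 with no filter and 0 after quantile normalization, and 6 without the block. It was 0, 35 and 0 without the pairs of days 4, 6 and 9. Leaving out 1 pair gave 0 members in each case, and medians from -0.068 (without day 4) to 0.0114 (without day 9), against 0.014 as reported. Leaving out 1 scar gave 0 to 2 members for the slope, 0 to 2 for any difference among days and 0 to 3 for the difference in slope. Over all genes, where each count was 0, the slope then gave 130 calls (without high day 6), any difference among days 40 and 38 (without high and without low day 6), and the difference in slope 83 (without high day 9). The cause of these calls was not tested. Median slopes stayed between -0.01 and 0.02 per day. Quantile normalization moved values of members by at most 0.20, and 5 of 78 single-gene estimates by more than their spread: both estimates of Flg2 and of Lce1h, and the difference of Krt1. Leaving out 1 scar moved more of the 39 single-gene slopes by over their standard error: 23 without high day 4, 12 without low day 9, 11 without low day 4, 5 without high day 9 and 0 without either day 6 scar. Quantile normalization turned the sign of Flg2, to -0.04. With 2 or 3 residual degrees of freedom, fewer with a scar left out, differences as small as those of most members were not detectable. Whether rows near the filter stand above background is not known.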
